A study of Homo sapiens with 6 samples.

Results

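Fibrillar collagens are the collagens that assemble into the banded fibrils of connective tissue, and 10 chain genes of this class were followed in lung fibroblasts in which ZNF469, a zinc finger gene, had been knocked down. The genes were taken by symbol from the deposited table: COL1A1, COL1A2, COL2A1, COL3A1, COL5A1, COL5A2, COL5A3, COL11A1, COL24A1 and COL27A1. All 10 were among the 23754 features of the table, and 9 had enough counts to be tested. Their messages took 2.80% ± 0.0442 of all counts in control cells and 1.90% ± 0.0346 after knockdown (SD, n = 3 each).

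The cells were IMR-90, a human fetal lung fibroblast line, transduced with the lentiviral vector Tet-pLKO-puro that carries a doxycycline-inducible short hairpin (sh-2) against ZNF469 and kept in 0.5 µg/mL puromycin. The 3 Sh-ZNF469 libraries came from cells given 2 µg/mL doxycycline for 4 days (DOX+), and the 3 Control libraries from cells without it (DOX-). The labels give the genotype of the controls as wild-type, whereas the study's methods describe the same transduced line without induction. All DOX+ libraries received both doxycycline and the hairpin. The effects of the drug and of the hairpin therefore cannot be told apart in these libraries. In separate control experiments, the paper reports no change of collagen production from lentiviral transduction or from doxycycline by itself. The submitters call the replicates technical. The p-values below therefore set group differences against the spread between libraries, which may hold no variation between cultures.

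Each fibrillar collagen molecule is a triple helix of chains. Type I, the most abundant collagen of the lung interstitium, joins a pair of COL1A1 products with a single COL1A2 product, and type III is a homotrimer of the COL3A1 product that is found in the same fibrils. Types V and XI are minor collagens that sit within the fibrils and limit their width, and COL5A1 together with COL5A2 gives the usual type V molecule. Type II is the main collagen of cartilage, and COL24A1 and COL27A1 encode more distant members of the class.

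Counts per library summed to 34057675 to 36120260. ZNF469 itself had 3981, 3941 and 4409 counts in DOX- replicates 1, 2 and 3 and 2869, 2851 and 2882 in the DOX+ replicates, and 67.5% of its message remained (log2 fold change −0.57, SE 0.0477, edgeR adjusted p = 3.31e-05). All DOX+ libraries lay below all DOX- libraries for the targeted gene. The first principal component, with 23.9% of the variance, placed DOX+ replicate 2 at 32.8 and the remaining libraries between −12.6 and 0.524, so values without that library are given below. Fibroblast markers summed to 10932 to 11103 CPM (counts scaled to the TMM library size) in DOX- and 10602 to 10793 in DOX+ libraries, and 2 of the 6 (DCN and LUM) were called lower. The endothelial markers PECAM1 and CDH5 and the alveolar epithelial marker SFTPC were at 0 in all libraries, and the third endothelial marker, VWF, was at 0.520 ± 0.0390 CPM in DOX- and 0.585 ± 0.241 CPM in DOX+ cells (SD, n = 3). Of the blood markers, CD68, a lysosomal protein of macrophages that fibroblasts can also express, was at 64.3 ± 3.39 CPM in DOX- and 61.4 ± 3.26 CPM in DOX+ cells, and the leukocyte marker PTPRC was at 0.0761 ± 0.0659 CPM in DOX- and 0.0748 ± 0.0863 CPM in DOX+ cells (SD, n = 3). Epithelial markers summed to 92.3 to 98.6 CPM in DOX- and 94.9 to 114 CPM in DOX+ libraries. Nearly all of this sum was KRT18, at 94.4 ± 3.52 CPM in DOX- and 104 ± 9.47 CPM in DOX+ cells (SD, n = 3). EPCAM, KRT19 and CDH1 were at 0.232, 0.182 and 0.0674 CPM in DOX- and at 0.354, 0.279 and 0 CPM in DOX+ cells. Of the epithelial, endothelial, blood and cartilage markers tested, 0 were called. Smooth muscle and contractile markers, 0 of 3 called, summed to 1266 to 1323 CPM in DOX- and 1354 to 1459 CPM in DOX+ libraries. Nearly all of this sum was ACTA2, at 1296 ± 29.9 CPM in DOX- and 1411 ± 54.7 CPM in DOX+ cells (SD, n = 3). All DOX+ libraries lay above all DOX- libraries for ACTA2 (edgeR adjusted p = 0.0774), as for 9.73% of all features. MYH11 was at 2.63 and 3.51 CPM and DES at 0.423 and 0.373 CPM in DOX- and DOX+ cells. The part of the ACTA2 difference in the collagen results was not tested. In bulk RNA, less message per cell and fewer cells that make it cannot be told apart.

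Promoter sequences were at hand for 5 of the 10 genes: COL5A1, COL5A3, COL11A1, COL24A1 and COL27A1. The 250 bases before the start site of COL5A1 (chr9:134641553-134641802, plus strand) and of COL5A3 (chr19:10010505-10010754, minus strand) are shown, from RefSeq on GRCh38.p14, because these type V chains were not called while COL5A2, the other type V chain, was. Both strands were searched for 4 motifs, and capitals mark the matches. GGGCGG is the core of a GC box and reads CCGCCC when it lies on the opposite strand.
COL5A1: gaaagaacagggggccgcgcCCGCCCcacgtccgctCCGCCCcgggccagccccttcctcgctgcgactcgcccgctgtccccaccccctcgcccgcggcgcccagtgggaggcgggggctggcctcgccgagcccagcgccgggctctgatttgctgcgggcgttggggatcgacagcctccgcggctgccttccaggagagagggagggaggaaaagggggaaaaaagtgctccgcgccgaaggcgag
COL5A3: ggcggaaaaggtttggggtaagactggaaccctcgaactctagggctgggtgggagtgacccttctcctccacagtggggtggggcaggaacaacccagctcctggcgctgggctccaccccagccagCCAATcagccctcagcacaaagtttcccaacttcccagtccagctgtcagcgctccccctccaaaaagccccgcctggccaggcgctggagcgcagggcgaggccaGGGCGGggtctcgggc
The COL5A1 window held 2 GGGCGG matches and no other motif searched, and its GC content was 74.0%. The COL5A3 window held 1 GC box core and 1 CCAAT box at 66.0% GC. The other 2 motifs, the TATA box and the SMAD-type element, were in neither printed window, and no matches overlapped. Among 35116 promoter windows of the same length, the GC box core GGGCGG was in 42.6% and the CCAAT box in 32.0%. The SMAD-type element, searched as CAGAC, was in 38.0% of the windows. The TATA box, searched as TATAAA, was in 10.7%. A match is a description of these letters only.

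Knockdown of ZNF469 came with lower messages for both chains of type I collagen, for type III and for the COL5A2 chain of type V. Of the 9 chains tested, 4 were called lower and 0 higher by edgeR's quasi-likelihood test at an FDR of 0.05. Of all 13991 features, 0.715% were called lower and 0.4% higher, or 1.12% in either direction. Among the 643 features with a mean log2 CPM over 8, a class that holds these 4 chains and COL5A1, 3.89% were called lower. The decreases ran from 21.0% for COL5A2 to 38.0% for COL1A1. For the other 5 chains (COL5A1, COL5A3, COL11A1, COL24A1 and COL27A1) the groups overlapped. Groups without overlap were thus found for 4 of 9 chains in the lower and 0 in the higher direction, against 10.6% and 9.73% of all features. The count of 0 higher was also given by limma-voom, and none of the 9 had an unadjusted edgeR p under 0.05 in that direction. DESeq2 gave no adjusted p for COL5A3, COL24A1 and COL27A1, the chains with a log2 fold change above 0. It therefore could not call them higher. Over the 9 chains the median log2 fold change was −0.050, with 6 below 0 and 3 above, beside a median of −0.0019 over all features, of which 7087 were below 0 and 6904 above.

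**Figure D1:**
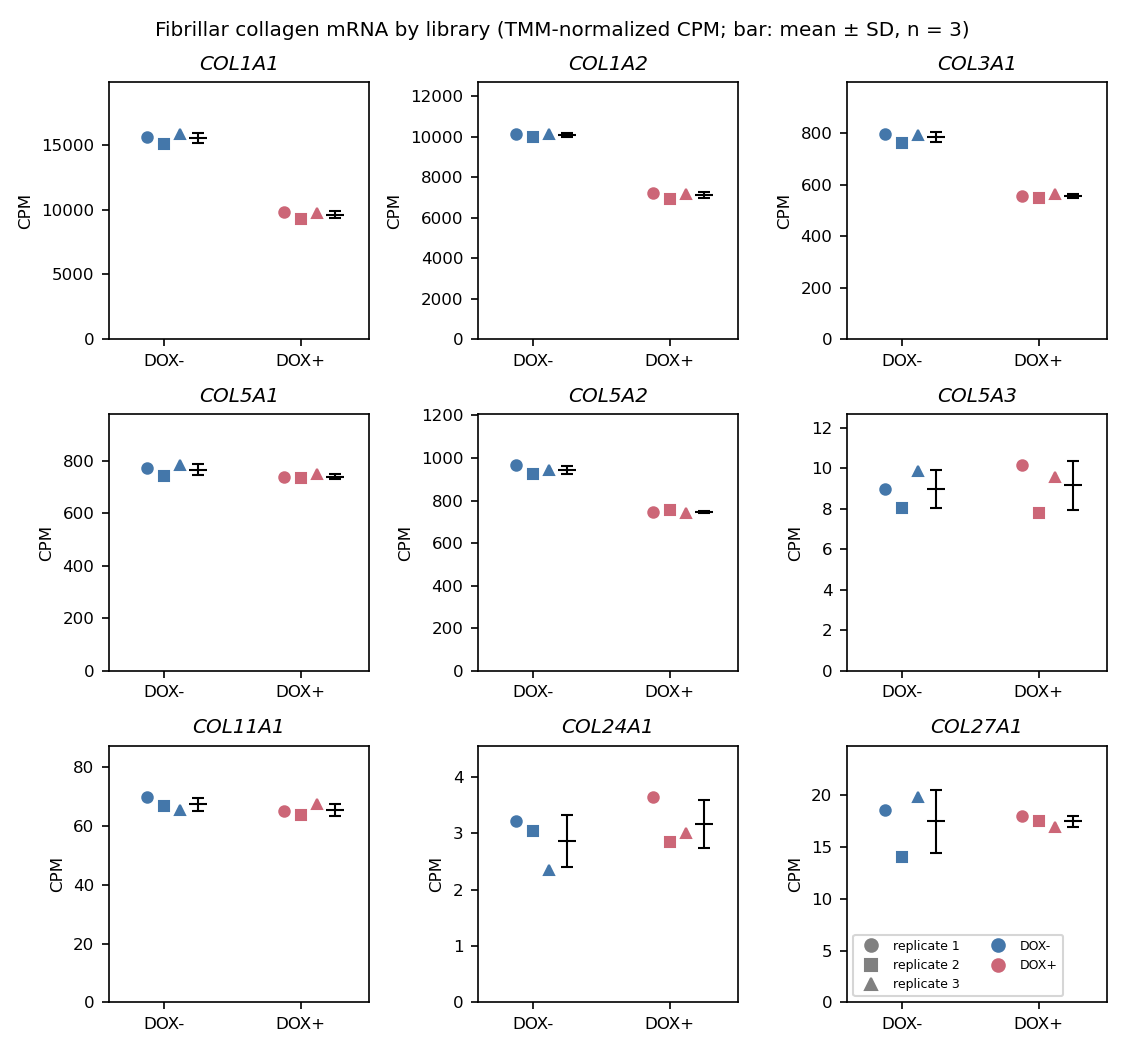
CPM (counts scaled to the TMM library size, linear axes from 0) of the 9 detected chains in each library, DOX- in blue and DOX+ in red, with marker shape giving the replicate and the black bar the mean ± SD of 3 libraries. COL1A1, COL1A2, COL3A1 and COL5A2 separate fully between the groups, and the other 5 chains overlap.

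COL1A1 (ENSG00000108821), on chromosome 17 at 50184101 to 50201632 of GRCh38 (minus strand, 51 exons in the canonical GENCODE transcript), encodes the main chain of type I collagen. Its level was 15619, 15064 and 15843 CPM in the DOX- libraries and 9794, 9291 and 9745 CPM in the DOX+ libraries. The lowest DOX- library stood well above the highest DOX+ library. The means of 15509 ± 401 and 9610 ± 277 CPM (SD, n = 3) gave a log2 fold change of −0.69 (SE 0.0217, 95% interval −0.74 to −0.64, edgeR adjusted p = 1.66e-09). COL1A1 ranked 1 by p-value among the features tested and 13 by mean FPKM in control cells among all features of the table.

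COL1A2 (ENSG00000164692), on chromosome 7 at 94394895 to 94431227 (plus strand, 52 exons), encodes the partner chain of type I. It was measured at 10112, 9995 and 10143 CPM in DOX- and at 7200, 6938 and 7182 CPM in DOX+ libraries. The groups were again apart, and by CPM DOX+ replicate 2 was the lowest library for both type I chains. The mean fell by 29.5%, from 10083 ± 78.3 to 7107 ± 147 CPM (SD, n = 3; log2 fold change −0.50, SE 0.0168, 95% interval −0.54 to −0.47, edgeR adjusted p = 1.74e-09). COL1A2 ranked 2 by p-value and 17 by FPKM in control cells.

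COL3A1 (ENSG00000168542), the chain of type III collagen, lies on chromosome 2 at 188974373 to 189012746 (plus strand, 51 exons). Its values were 797, 763 and 793 CPM in DOX- and 557, 548 and 563 CPM in DOX+ libraries. No DOX+ value reached the DOX- range. The mean went from 784 ± 18.5 to 556 ± 7.33 CPM (SD, n = 3), a decrease of 29.2% (log2 fold change −0.50, SE 0.0292, 95% interval −0.56 to −0.43, edgeR adjusted p = 1.13e-06).

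COL5A2 (ENSG00000204262), a chain of type V collagen, lies beside COL3A1 on chromosome 2, at 189031898 to 189225312 on the minus strand. The ends of the 2 genes face each other across 19.2 kb, with 0 annotated genes between them. COL5A2 was at 965, 925 and 944 CPM in DOX- and at 745, 754 and 741 CPM in DOX+ libraries. The 3 DOX+ libraries lay within a narrow band below the controls. The mean fell from 945 ± 19.8 to 747 ± 6.36 CPM (SD, n = 3; log2 fold change −0.34, SE 0.0270, 95% interval −0.40 to −0.28, edgeR adjusted p = 2.29e-05). The nearest expressed genes outside this pair, GULP1 on the COL3A1 side (log2 fold change 0.21, edgeR adjusted p = 0.215) and WDR75 on the COL5A2 side (−0.09, edgeR adjusted p = 0.531), did not pass the test.

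COL5A1 (ENSG00000130635), which encodes the α1 chain of type V collagen and lies on chromosome 9 at 134641803 to 134844843, was not called. It had 773, 741 and 782 CPM in DOX- and 737, 732 and 749 CPM in DOX+ libraries. The highest DOX+ library lay above the lowest DOX- library. The log2 fold change was −0.050 (SE 0.0291, edgeR adjusted p = 0.453), and its 95% interval ran from a decrease of 7.52% to an increase of 0.912%. With the trend of counts on transcript GC content removed, the log2 fold change was 0.012.

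COL11A1, the α1 chain of type XI collagen, which can also join type V chains, was at 69.7, 66.7 and 65.4 CPM in DOX- and at 64.9, 63.7 and 67.6 CPM in DOX+ libraries. The groups overlapped (log2 fold change −0.040, edgeR adjusted p = 0.723), and the 95% interval ran from −9.08% to 3.996%, which leaves out a decrease as large as the 21.0% of COL5A2.

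The remaining 3 detected chains had wider intervals. COL27A1 had 629, 495 and 691 counts in DOX- and 643, 621 and 613 in DOX+ libraries (17.5 ± 3.02 and 17.5 ± 0.550 CPM; SD, n = 3), with a 95% interval from −14.9% to 17.5%. COL5A3, the least abundant type V chain, had 305, 283 and 345 counts in DOX- and 362, 277 and 346 in DOX+ libraries, with an interval from −15.3% to 23.2%. COL24A1 had 109, 107 and 82 counts in DOX- and 130, 101 and 109 in DOX+ libraries, with an interval from −15.9% to 44.9%. For these chains a decrease as large as that of COL1A1 lay outside the interval, but a change of 10% in either direction lay within it.

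COL2A1, the chain of cartilage type II collagen, had 0 counts in all 6 libraries, which allows a level of up to 0.0886 CPM (3 counts in a library, counting error only). Other cartilage genes were not all silent: SOX9 was at 54.7 ± 0.981 CPM in DOX- and 48.9 ± 1.34 CPM in DOX+ cells (SD, n = 3; edgeR adjusted p = 0.116). ACAN (20.9 CPM in DOX- and 21.3 CPM in DOX+ cells) and MATN3 (6.24 and 7.38 CPM) were not called either. MATN1 (0.143 and 0.234 CPM) and HAPLN1 (0.0973 and 0.159 CPM) were near 0 and not tested.

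**Figure D2:**
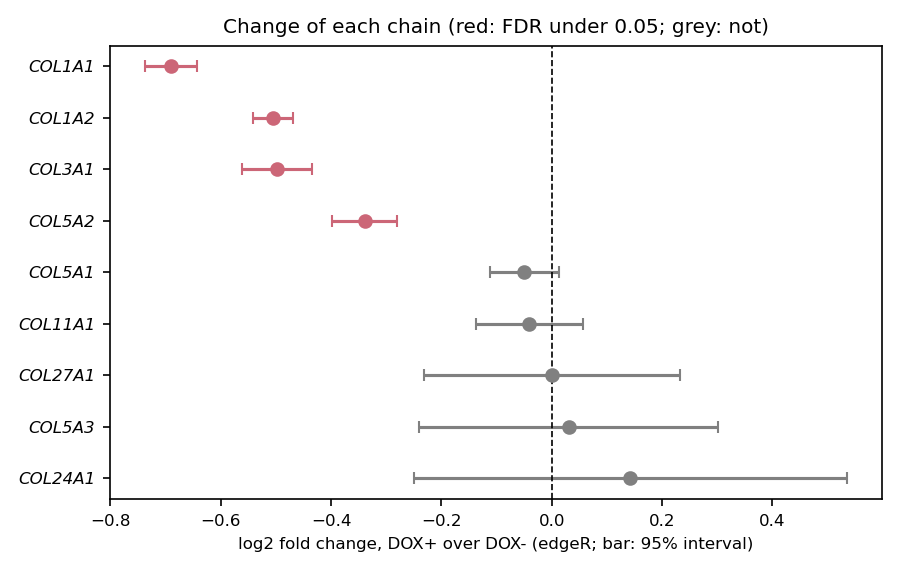
Log2 fold change of each chain, DOX+ over DOX-, from edgeR's fit across all features, with 95% intervals. The 4 chains in red (FDR under 0.05) lie between −0.69 and −0.34, and the 5 in grey have intervals that include 0.

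Levels of different chains were compared on the deposited FPKM, which divides by transcript length. In DOX- cells COL1A1 stood highest at 2077 ± 42.8 FPKM, followed by COL1A2 at 1676 ± 14.7 FPKM (SD, n = 3). COL3A1 (127 ± 2.91), COL5A2 (120.0 ± 2.97) and COL5A1 (81.5 ± 1.92 FPKM; SD, n = 3) came next, and COL1A2 was 13.2-fold above COL3A1. COL11A1 (8.44 FPKM), COL27A1 (2.05), COL5A3 (1.31) and COL24A1 (0.379) formed the lower part of the order. Each neighbouring pair in this order was fully separated over the 3 DOX- libraries. In DOX+ cells the order of COL3A1 and COL5A2 was reversed: COL5A2 (96.3, 113 and 96.4 FPKM) lay above COL3A1 (91.9, 92.2 and 93.4 FPKM) in each library, with no overlap. COL1A1 (1319 ± 25.8 FPKM) and COL1A2 (1238 ± 32.0 FPKM; SD, n = 3) were nearer to each other, still with no overlap.

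**Figure D3:**
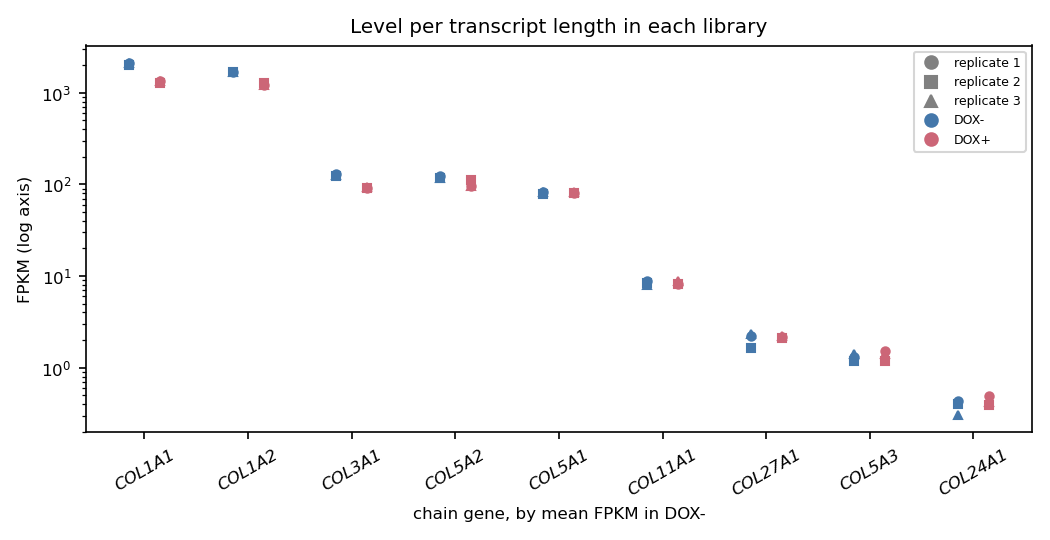
Deposited FPKM (log axis) of the 9 detected chains in each library, ordered by their mean in DOX- cells, DOX- in blue and DOX+ in red. COL1A2 stands 13.2-fold above COL3A1 in DOX- and 13.4-fold in DOX+ cells.

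Because the chains of one molecule changed by different amounts, their ratios were computed within each library, where no scaling between libraries enters. COL1A1 to COL1A2, the chains of type I, had count ratios of 1.54, 1.51 and 1.56 in DOX- and of 1.36, 1.34 and 1.36 in DOX+ libraries. All DOX+ ratios were below all DOX- ratios, by 12.1% on average (1.54 ± 0.0280 and 1.35 ± 0.0112; SD, n = 3). Per kilobase of the canonical transcripts the ratio was 1.32 in DOX- and 1.16 in DOX+ cells. On FPKM it was 1.24 ± 0.0225 in DOX- and 1.07 ± 0.0477 in DOX+ cells (SD, n = 3), also without overlap.

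COL5A1 to COL5A2, the usual chains of type V, had count ratios of 0.801, 0.801 and 0.828 in DOX- and of 0.989, 0.972 and 1.01 in DOX+ libraries. The ratio was higher in each DOX+ library, by 22.2% on average, and per kilobase it was 0.655 in DOX- and 0.801 in DOX+ cells. On FPKM it was 0.829, 0.719 and 0.847 in DOX+ libraries, with DOX+ replicate 2 close to the highest DOX- library (0.694). COL5A1 to COL1A1, type V against type I, rose from 0.0493 ± 0.000132 to 0.0770 ± 0.00182 (SD, n = 3), or by 55.9%, again with no overlap. COL3A1 to COL1A1, type III against type I, was 0.0506 ± 0.000500 in DOX- and 0.0578 ± 0.00108 in DOX+ cells (SD, n = 3), 14.3% higher. For each of these 4 ratios the two-sided exact permutation p was 0.1, the smallest that 3 libraries against 3 allow. After Benjamini-Hochberg adjustment over the 7 ratios computed it was 0.14, so none could pass 0.05 in this design. A trend of counts on GC content need not cancel in a ratio, and no ratio was computed with it removed. In the edgeR fit without that trend, log2 fold changes were −0.62 for COL1A1, −0.47 for COL1A2 and −0.47 for COL3A1. They were 0.012 for COL5A1 and −0.33 for COL5A2.

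COL5A3 to COL5A1 (0.0117 ± 0.000903 and 0.0124 ± 0.00159; SD, n = 3; exact permutation p = 0.7) and COL11A1 to COL5A1 (0.0879 ± 0.00373 and 0.08845 ± 0.00165; SD, n = 3; exact permutation p = 0.9) overlapped between the groups. Among the chains of types V and XI, COL5A2 alone was called lower. With COL2A1 at 0, type XI was represented by COL11A1 and by COL11A2, which was not among the 10 genes and was added after the data were seen. COL11A2 had 43, 44 and 59 counts in DOX- and 26, 37 and 28 in DOX+ libraries (log2 fold change −0.72, SE 0.282, edgeR adjusted p = 0.246). Its ratio to COL11A1 was 0.0209 ± 0.00428 in DOX- and 0.0130 ± 0.00291 in DOX+ cells (SD, n = 3; exact permutation p = 0.1), but on FPKM the groups overlapped (exact permutation p = 0.3).

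**Figure D4:**
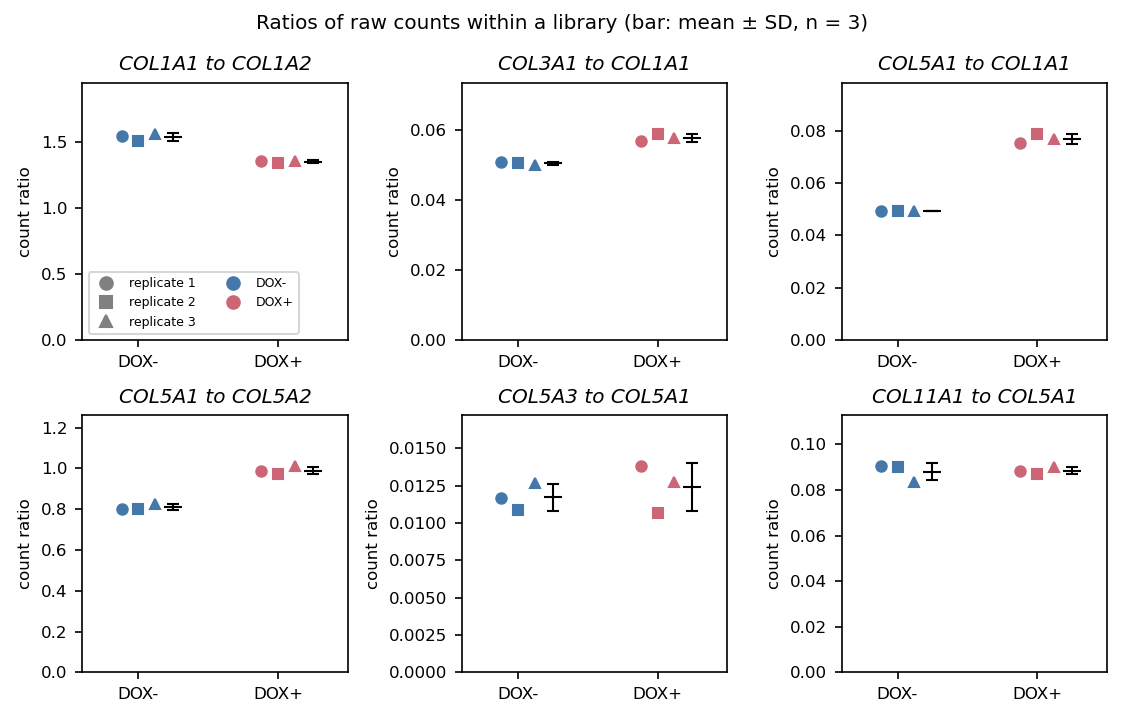
Ratios of raw counts of 2 chains within each library (linear axes from 0), DOX- in blue and DOX+ in red, with the mean ± SD of 3 libraries as a black bar. COL1A1 to COL1A2 is lower in all DOX+ libraries, COL3A1 to COL1A1, COL5A1 to COL1A1 and COL5A1 to COL5A2 are higher, and the last 2 ratios overlap.

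Together the 10 genes took 2.82%, 2.75% and 2.82% of all counts in DOX- and 1.92%, 1.86% and 1.91% in DOX+ libraries. The share fell by 0.899 percentage points, with no overlap between the groups (two-sided exact permutation p = 0.1, the smallest possible). As a share of the FPKM sum, in which long transcripts weigh less, the 10 genes took 1.08% ± 0.0214 in DOX- and 0.748% ± 0.00751 in DOX+ cells (SD, n = 3), again without overlap. The summed level dropped by 9330 CPM, of which COL1A1 made up 63.2% and COL1A2 31.9%, against 2.45% for COL3A1 and 2.12% for COL5A2. Within the fibrillar pool the share of COL1A1 went from 55.0% to 51.0%, while COL1A2 went from 35.8% to 37.7%, COL5A2 from 3.35% to 3.96% and COL5A1 from 2.71% to 3.92%. These shares are parts of one sum, so a smaller share of COL1A1 raises the others.

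The deposited FPKM and the counts disagreed for COL5A2, and also for COL1A2, in a single library. In FPKM COL5A2 was at 123, 118 and 118 in DOX- and at 96.3, 113 and 96.4 in DOX+ libraries. DOX+ replicate 2 was at 93.8% of the DOX- mean by FPKM but at 79.8% by CPM, and the other DOX+ libraries were at 78.5% to 80.3% by both measures. For COL1A2 that library was at 76.1% by FPKM, the highest in DOX+, but at 68.8% by CPM, the lowest. The length implied by dividing counts by FPKM and library size was 6.78 kb for COL5A2 in that library and 7.71 to 7.87 kb in the other 5. COL1A2 (5.51 against 5.89 to 6.01 kb) and COL11A2 (4.66 against 7.17 to 7.30 kb) were shorter in the same library, and COL27A1 was shorter in DOX+ replicate 3 (7.71 against 8.36 to 8.50 kb). By limma on log2(FPKM + 0.1), an alternative added after the data were seen, COL5A2 lost its call (log2 fold change −0.24, limma adjusted p = 0.199) and the other 3 kept theirs. Without DOX+ replicate 2, the edgeR log2 fold changes were −0.67 for COL1A1, −0.49 for COL1A2, −0.49 for COL3A1 and −0.35 for COL5A2, and all 4 calls remained.

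**Figure D5:**
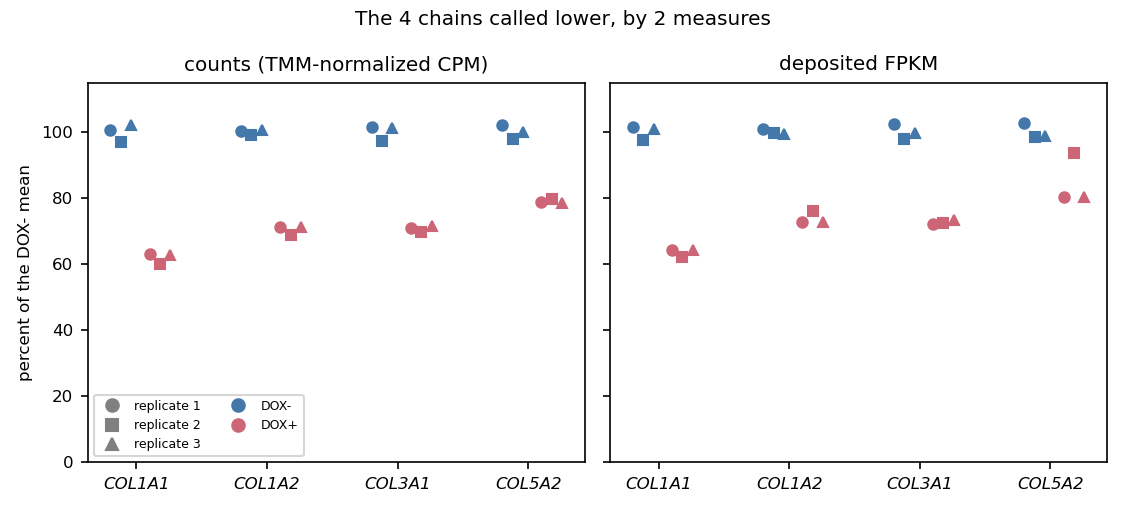
Level of the 4 chains called lower in each library as a percent of the DOX- mean (linear axes from 0), from counts on the left and from deposited FPKM on the right. DOX+ replicate 2 (red square) reaches 93.8% for COL5A2 by FPKM and 79.8% by counts.

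Collagen chains other than the 10 genes were called lower in a few cases. Of 34 such chain genes in the table, 20 were tested, 5 were called lower and 0 higher, with a median log2 fold change of −0.10. The 34 include COL11A2, a type XI chain of the fibrillar class, which was tested and not called. COL15A1, a basement membrane zone collagen, fell by 0.47 on the log2 scale (edgeR adjusted p = 7.44e-04). COL6A1, a chain of the microfibrillar type VI, fell by 0.21 (edgeR adjusted p = 0.00214), and COL4A1, of basement membrane type IV, fell by 0.13 (edgeR adjusted p = 0.00643). The other two, named after their values were seen, were COL16A1 (−0.23, edgeR adjusted p = 0.00990) and COL6A3 (−0.12, edgeR adjusted p = 0.00901). Without DOX- replicate 1 or without DOX+ replicate 1, COL4A1, COL16A1 and COL6A3 lost their calls (edgeR adjusted p up to 0.0855), and COL16A1 and COL6A3 also without DOX- replicate 3. The difference between the 10 genes and the other collagen chains was not tested.

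Enzymes and chaperones that modify, fold and trim procollagen were called in 2 cases. Of 28 genes, 27 were tested, 1 was called lower and 1 higher, at a median log2 fold change of 0.02. SERPINH1, the collagen chaperone HSP47, went from 1105 ± 21.9 to 974 ± 28.6 CPM (SD, n = 3; log2 fold change −0.18, edgeR adjusted p = 0.00629), a call lost without DOX+ replicate 1 (edgeR adjusted p = 0.0582). PLOD2, a lysyl hydroxylase, rose by 0.25 (edgeR adjusted p = 0.0325), and this call was absent from 4 of the 6 fits that left out 1 library, kept only without DOX- replicate 2 or without DOX+ replicate 3 (edgeR adjusted p up to 0.164).

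Among 16 genes of fibril assembly and crosslinking, all tested, 3 were called lower and 3 higher (median 0.02). SPARC, a collagen-binding matricellular protein, had 4171, 4291 and 4103 CPM in DOX- and 2779, 2718 and 2776 CPM in DOX+ libraries. Its log2 fold change of −0.60 (SE 0.0210, edgeR adjusted p = 2.15e-09) lay between those of COL1A1 and COL1A2. DCN (−0.18, edgeR adjusted p = 0.00557) and LUM (−0.22, edgeR adjusted p = 0.0499), small proteoglycans that coat fibrils, were lower as well. DCN lost its call without DOX- replicate 1 (edgeR adjusted p = 0.0529), and LUM kept its call only when DOX+ replicate 2 was the library left out (edgeR adjusted p up to 0.205 in the others). LUM also lost it with RLE, upper-quartile or library size scaling and with the length trend removed. LOX, which crosslinks collagen, rose by 0.18 (edgeR adjusted p = 0.00531). POSTN, which encodes the matrix protein periostin, rose by 0.60 (edgeR adjusted p = 0.00595), and THBS1, the matricellular thrombospondin 1, rose by 0.16 (edgeR adjusted p = 0.00629). THBS1 lost its call without DOX- replicate 1 or without DOX+ replicate 1 (edgeR adjusted p up to 0.0602).

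Of 6 collagen receptor genes, all tested, ITGA2 was the only one called (−0.33, edgeR adjusted p = 0.00269, lower), and the median was −0.02. Of 26 known regulators of fibrillar collagen genes, all tested, 2 were called lower and 0 higher (median 0.02). CEBPB, a bZIP transcription factor, went from 83.3 ± 1.11 to 69.5 ± 1.10 CPM (SD, n = 3; log2 fold change −0.26, edgeR adjusted p = 0.00557). CREB3L1, a membrane-bound factor that activates type I collagen genes, was lower by a log2 fold change of −0.22 (edgeR adjusted p = 0.0485), a call that held only in the fit without DOX+ replicate 3 among those that left out 1 library (edgeR adjusted p up to 0.205). It was also lost with upper-quartile or library size scaling and with the length trend removed.

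Over the 6 libraries, the pattern of COL1A1 was most like that of PHGDH, a serine synthesis enzyme (Pearson r = 0.998 on log2 CPM), among named genes outside the class. WARS (0.997) and GARS (0.995), which charge transfer RNAs, and GLYCTK and CEBPB (both 0.996) came next. GLYCTK was not called (log2 fold change −0.39, edgeR adjusted p = 0.210), whereas PHGDH, WARS, GARS and CEBPB were called lower. For the other chains called lower, r with COL1A1 was 0.999 for COL1A2, 0.999 for COL3A1 and 0.991 for COL5A2. For COL5A1 it was 0.753 and for COL11A1 0.501. These values describe 6 points that fall into the 2 groups, share their library with COL1A1 and carry no test.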

How the data were processed

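Per the submitters' notes, 150 bp read pairs were mapped on GRCh38 by HISAT2, then passed to StringTie; tool versions, annotation and counting step are not given in the sources used here. The authors deposited whole-number counts and FPKM for each gene and library. Of 23754 features, 3780 are unannotated loci; 17 stray lines were dropped. GENCODE 44 gave coordinates and lengths for 19883 Ensembl identifiers.

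Counts were fitted over the whole table with edgeR 4.0.16 (R 4.3.3): filterByExpr (minimum count 10), TMM, quasi-likelihood test without covariates, Benjamini-Hochberg adjustment over 13991 features, FDR 0.05. CPM uses TMM library sizes. Chain ratios and shares were compared by two-sided exact permutation over libraries. FPKM tests used limma 3.58.1 on log2(FPKM + 0.1). Chi-square per degree of freedom between libraries was 4.65 to 8.47 within and 12.5 to 22.2 across groups, so none was a duplicate. The edgeR fit was tested on simulated counts, and the other steps were not.

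Members and lists were chosen with earlier results of these data known. Named genes were the 10 chains, ZNF469, up to 3 called genes per list and direction with the smallest p, and the 5 most correlated with COL1A1; neighbours and COL11A2 were added. Alternatives were 3 scalings, 2 filters, DESeq2 1.42.0, limma-voom, replicate block, length and GC trends (lowess, span 0.3), FDR 0.01, no unannotated loci, and leaving out each library.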

Additional observations from a re-analysis of the deposited data

How the results depend on the processing

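Under 19 alternatives each, COL1A1 (log2 fold change −0.72 to −0.62), COL1A2 (−0.53 to −0.44), COL3A1 (−0.52 to −0.46) and ZNF469 (−0.62 to −0.47) kept their calls, and 4 chains were called lower and 0 higher in all except limma on FPKM, where 3 were called lower. COL5A2 lost its call there (−0.24, adjusted p = 0.199). DESeq2 gave no adjusted p for COL5A3, COL24A1 and COL27A1, so it could not call these chains higher. The sign changed for COL5A1 with the GC trend removed (0.012), for COL27A1 with the length trend removed (−0.036), and on leaving out 1 library for COL27A1 (−0.13 to 0.10), COL5A3 (−0.048 to 0.13), and the log2 differences in the ratios COL5A3 to COL5A1 (−0.0037 to 0.18) and COL11A1 to COL5A1 (−0.027 to 0.028); the cause was not tested. The count of all features called lower (100) was 163 with no filter, 163 with the GC trend removed, 243 with DESeq2, 24 with limma on FPKM, 54 at an FDR of 0.01 and 54 to 92 with 1 library left out. The count called higher (56) was 127, 127, 245, 6, 19 and 20 to 69 in the same order. With library size scaling, 88 were called higher and 77 lower, in place of 56 and 100. Limma on FPKM also left the listed genes outside the class without a call, except SPARC, PHGDH and WARS. The ratio COL2A1 to COL11A1 was not run, since COL2A1 had 0 counts.

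No pairing by replicate number was seen over the tested features as a whole: deviations from the group means correlated at −0.02, −0.04 and 0.04. Such correlations cannot exclude replicate effects on some of the features. With the replicate block, 157 features were called lower and 135 higher, the 4 chain calls remained, GULP1 passed (0.22, edgeR adjusted p = 0.0453), and the ratios kept their log2 differences (−0.19 for COL1A1 to COL1A2, 0.29 for COL5A1 to COL5A2; exact sign-flip p = 0.25, the smallest possible). The share of all counts on the 10 genes differed by −0.899 percentage points, from 2.80% in DOX- to 1.90% in DOX+ cells. As a share of the FPKM sum, a smaller base, the difference was −0.332 percentage points, from 1.08% to 0.748%. COL5A3, COL24A1 and COL27A1 had wide intervals; how much of their width came from counting error was not tested.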
